A study of Bos taurus with 30 samples.

Results

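The miR-26 family in the anterior pituitary of the bull calf is represented by 3 of the 1030 mature miRNAs in the deposited table, bta-miR-26a, bta-miR-26b and bta-miR-26c. They were taken by name. The family was chosen by the mean levels of miR-26a and miR-26b in the same libraries, which were high and lower in calves on the high diet. Those 2 were measured in all 30 libraries and both were among the 419 miRNAs that passed the filter on low counts. The third, miR-26c, was listed at 0 in all 30 libraries. The samples came from the pituitary of Holstein-Friesian bull calves at 12 weeks of age, with 1 small RNA library per calf. A high plane of nutrition (HI, n = 15) meant 1.5 kg of milk replacer in 10 litres per day with concentrate ad libitum from 2 weeks of age. A moderate plane (MOD, n = 15) meant 0.5 kg in 4 litres with a restricted concentrate allowance. Breed, sex and age were the same in both groups, and the calves came from several farms, which the labels do not name.

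MicroRNAs are short RNAs that guide Argonaute proteins to messenger RNAs, which are then translated less or degraded. A miRNA chooses its targets mainly by its seed, the bases near its 5′ end, and miR-26a and miR-26b are known to share theirs, so they are expected to act on largely the same messages. Among the targets described for them are EZH2 (a histone methyltransferase) and cyclins and cyclin-dependent kinases of the G1 phase, and the family is widely regarded as growth restraining in normal tissue. In vertebrates its genes lie within the CTDSP genes, which encode small phosphatases of the RNA polymerase II tail that restrain neuronal genes outside the nervous system. The bovine RefSeq annotation of ARS-UCD2.0 has the same arrangement. MIR26A-1 lies inside CTDSPL, MIR26A-2 inside CTDSP2 and MIR26B inside CTDSP1. In that annotation MIR26C has the same start and end as MIR26A-1, so its membership of the family rests on its name and on this shared place.

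Library depth was 6650492 to 11086524 reads on miRNAs. Expression is given as CPM, reads scaled to a common library total after the authors' TMM normalization, which corrects library totals for differences in composition. The defining endocrine markers were present in every library, the sum of miR-375, miR-7, miR-141, miR-429 and the miR-200 family being 136048 to 232042 CPM. The 9 libraries with the highest calf label numbers (5 HI and 4 MOD) stood apart from the other 21. With diet in the model, 109 of the 419 miRNAs (26.0%) differed between these sets at FDR < 0.1 (limma). What the label order stands for was not given in the sources used here, and the boundary of the set had been placed with another miRNA, miR-99b.

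Both measured members were abundant. Expression of miR-26a averaged 59823 CPM, or 5.95% of the reads of a library, and its rank lay between 3 and 5 in each library. By mean CPM only miR-375, at 146057 CPM, and miR-148a, at 93569 CPM, stood above it, with miR-411a following at 52273 CPM. Expression of miR-26b averaged 10434 CPM, or 1.04% of reads, and its rank lay between 22 and 26. Together the 2 took 5.57 to 9.0% of the reads of a library. These shares rested on 354422 to 710731 reads of miR-26a and 67900 to 113735 reads of miR-26b per library, so counting error was far below the differences between calves. For miR-26c, a count of 0 allows up to 3 reads, which were worth 0.266 to 0.419 CPM. Levels of different miRNAs also reflect how well each sequence is ligated and amplified during library preparation, so the order of miR-26a and miR-26b is that of reads.

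The reads of the 2 members differed in one further respect. In 18 of the 30 libraries miR-26a had a value that was not a whole number of reads but ended halfway between, whereas miR-26b was a whole number of reads in all 30. RefSeq lists 2 genes for miR-26a and 1 for miR-26b. Among tested miRNAs matched to 2 genes, 26 of 35 had a non-whole value in at least 1 library, against 6 of 275 matched to 1 gene. The deposited row of miR-26a therefore cannot be divided between MIR26A-1 and MIR26A-2. Whether reads were summed or averaged over them was not given in the sources used here, so the ratio of miR-26a to miR-26b is meaningful between libraries rather than as an absolute value.

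The 2 members varied to very different degrees between calves of the same diet. Within diets, the SD of log2(CPM + 1) was 0.24 for miR-26a and 0.09 for miR-26b. Of the 71 miRNAs above 1000 CPM, 3 varied less than miR-26b and 67 varied more, their median SD being 0.16. By contrast 53 of the 71 varied less than miR-26a. Over all 419 tested miRNAs the same 3 lay below miR-26b, and the median SD was 0.25. Expression of miR-26b was thus among the steadiest in the tissue, and that of miR-26a was in the more variable part of the abundant miRNAs.

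**Figure D1:**
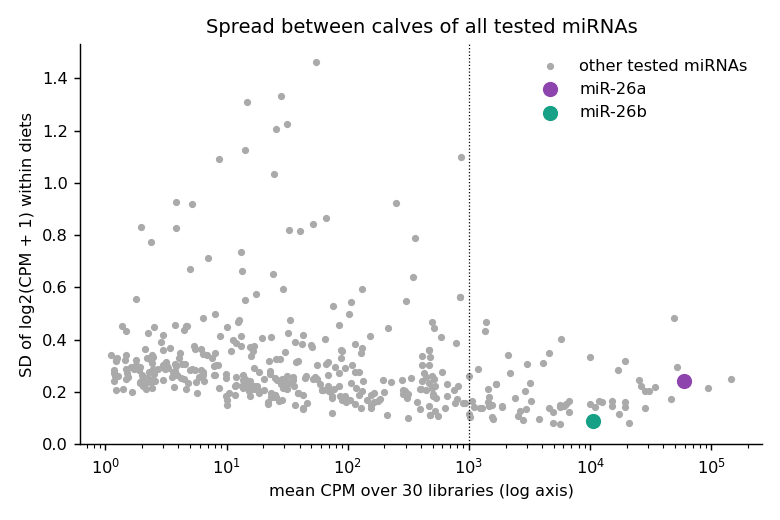
SD of log2(CPM + 1) between calves of the same diet (y axis) against mean CPM (x axis, log scale) for the 419 tested miRNAs, 1 point each; the dotted line marks 1000 CPM. Purple miR-26a lies at an SD of 0.24 and green miR-26b at 0.09, near the lower edge of the abundant miRNAs.

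The diet comparison is the one by which the members were chosen, so their values are described here without a test. Expression of miR-26a in HI calves ran from 37724 CPM to 79082 CPM, with a median of 52924 CPM. In MOD calves it ran from 52207 CPM to 85827 CPM, with a median of 62966 CPM. The ranges overlapped, although 7 of the 15 HI calves lay below the lowest MOD calf and 12 lay below the MOD median. HI calves averaged 54232 ± 11218 CPM (SD, n = 15) and MOD calves 65414 ± 8569 CPM (SD, n = 15), so the mean was 17.1% lower in HI. On the log2(CPM + 1) scale the difference, HI minus MOD, was -0.29 (standard error 0.09 from limma).

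Expression of miR-26b in HI calves ran from 9140 CPM to 10971 CPM, with a median of 9741 CPM. In MOD calves it ran from 9873 CPM to 11924 CPM, with a median of 10842 CPM. A total of 8 HI calves lay below the lowest MOD calf, 14 lay below the MOD median, and 6 MOD calves lay above the highest HI calf. HI calves averaged 9955 ± 635 CPM (SD, n = 15) and MOD calves 10913 ± 657 CPM (SD, n = 15), so the mean was 8.78% lower in HI. The log2 difference was -0.13 (standard error 0.04). The difference in miR-26b was smaller than that in miR-26a, but so was its spread.

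The ratio of miR-26a to miR-26b does not depend on how the libraries were scaled. It was 5.44 ± 1.01 in HI and 6.01 ± 0.851 in MOD calves (SD, n = 15 each), with ranges of 4.13 to 7.60 and 4.48 to 8.14. The ranges overlapped almost wholly, and 3 HI calves lay below the lowest MOD calf, although 12 of the 15 lay below the MOD median. The log2 difference of the ratio was -0.15, as miR-26a was lower by more than miR-26b.

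**Figure D2:**
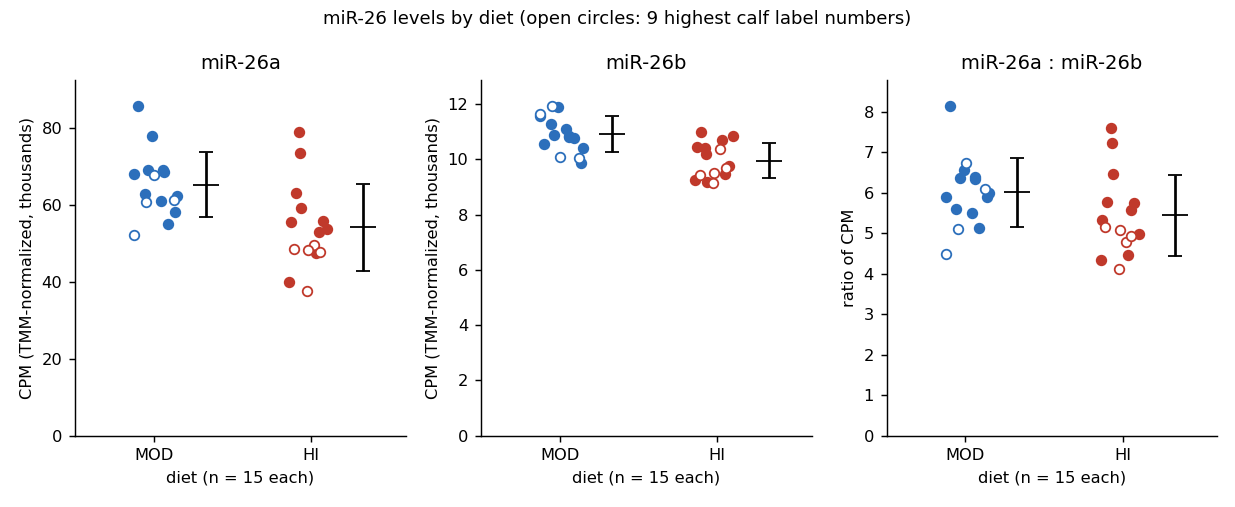
CPM of miR-26a and miR-26b and their ratio (y axes, from 0) in each library by diet (x axis, n = 15 each), with the mean and SD as black bars; open circles are the 9 libraries with the highest calf label numbers. HI calves lay lower for both miRNAs, with overlap, and the ratio overlapped most.

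The size of the difference in miR-26b depended on how the libraries were scaled. The TMM factors were 1.02 ± 0.0724 (SD, n = 15) for HI and 0.979 ± 0.0313 (SD, n = 15) for MOD libraries. HI replicates 15 and 8 had the highest factors, 1.21 and 1.15, and the lowest miR-26a, which was also lowest as a share of reads, at 4.55% and 4.59%. As a share of all reads, miR-26b was 1.02 ± 0.0687% in HI and 1.07 ± 0.0725% in MOD calves, and its log2 difference was -0.07. It was -0.07 with library totals that left out the 5 most abundant miRNAs and -0.23 with upper quartile scaling. The median of all 419 miRNAs moved with the scaling as well, from 0.02 with TMM to 0.07 on library totals and -0.07 with upper quartile scaling. Relative to that median, miR-26b lay between -0.16 and -0.14 and miR-26a between -0.31 and -0.29 under each of the 5 scalings. A scaling factor shifts all miRNAs of a library alike, so this steadiness follows from the arithmetic and is not support for the differences.

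**Figure D3:**
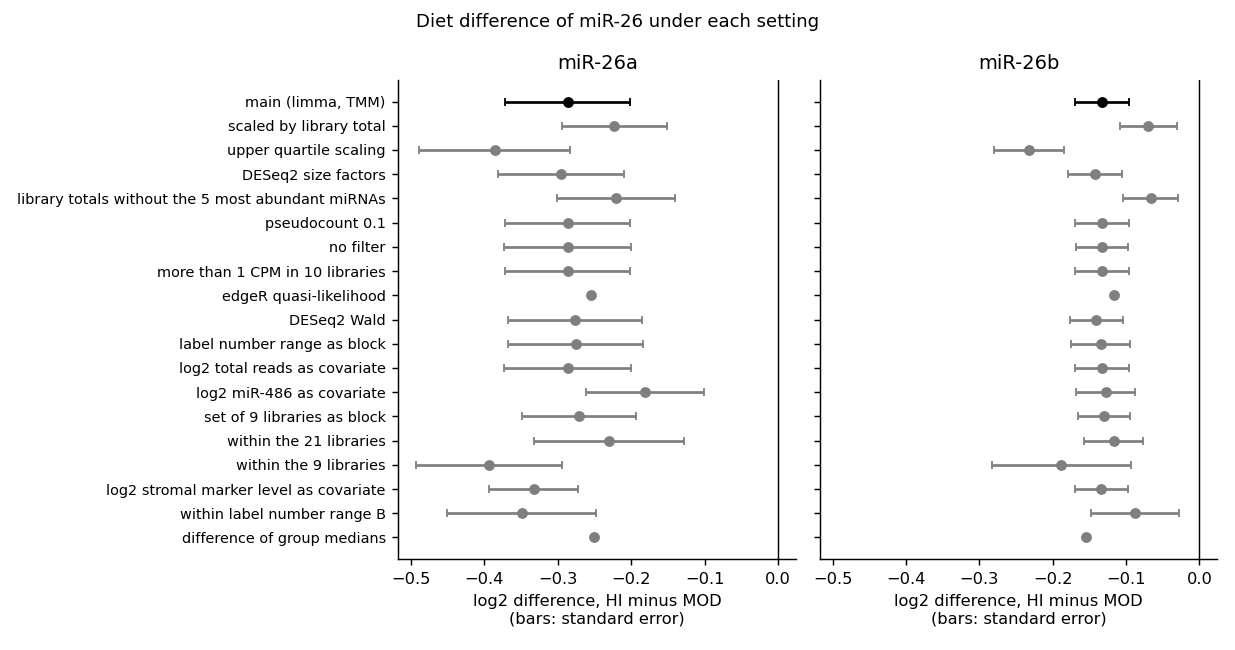
Log2 difference of miR-26a and miR-26b, HI minus MOD (x axes), under the main and each other setting (rows), with the standard error as bars where the setting gives one. All points lie below 0, miR-26a from -0.39 to -0.18 and miR-26b from -0.23 to -0.07.

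The levels were also set out by diet and library set. Expression of miR-26a was 67166 ± 8816 CPM in the 11 MOD and 58153 ± 11570 CPM in the 10 HI libraries of the 21. In the 9 it was 60598 ± 6433 CPM in the 4 MOD and 46390 ± 4891 CPM in the 5 HI libraries. In that order of levels the 4 MOD libraries of the 9 and the 10 HI libraries of the 21 were neighbours that differed by less than their SD. For miR-26a the 5 HI calves of the 9 lay between 37724 CPM and 49619 CPM and the 4 MOD calves between 52207 CPM and 67879 CPM. For miR-26b these ranges overlapped, from 9140 to 10356 CPM in the 5 HI and from 10066 to 11924 CPM in the 4 MOD calves. These libraries are part of those by which the members were chosen. How many other miRNAs parted in them as miR-26a did was not counted, so no weight is placed on it. The log2 difference of miR-26a between diets was -0.39 (standard error 0.10) in the 9 and -0.23 (standard error 0.10) in the 21. For miR-26b it was -0.19 (standard error 0.09) and -0.12 (standard error 0.04). The difference between the sets in the effect of diet was -0.16 (standard error 0.17) for miR-26a and -0.07 (standard error 0.08) for miR-26b, each with FDR = 0.875 from the interaction term in limma. In that test 0 of 419 miRNAs (0%) passed FDR < 0.1, with 21 at an unadjusted p under 0.05, and edgeR's quasi-likelihood test also gave 0, with 23. Within the largest range of calf label digits, which held 8 HI and 8 MOD calves, the diet difference was -0.35 (standard error 0.10) for miR-26a and -0.09 (standard error 0.06) for miR-26b.

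The contrast between the library sets was not used in choosing the members. With diet in the model, miR-26a was lower in the 9 libraries by a log2 difference of -0.23 (standard error 0.08, FDR = 0.0570 from limma), in a comparison in which 60 of the 419 miRNAs (14.3%) passed in that direction. The 9 averaged 52705 ± 9141 CPM and the 21 averaged 62874 ± 10971 CPM (SD), with overlapping ranges. The result was not firm. It had FDR = 0.131 when the calf at the boundary, MOD replicate 15, was moved to the other set, and with 1 calf left out its FDR was 0.1 or more in 12 of 30 fits (without HI replicate 1, 2, 3, 9, 11, 12, 14 or 15, or MOD replicate 3, 4, 8 or 14). The highest was 0.217 without HI replicate 15, where the log2 difference was -0.15. For miR-26b the log2 difference was -0.04 (standard error 0.04, FDR = 0.510 from limma), the 9 averaging 10204 ± 977 CPM and the 21 averaging 10533 ± 716 CPM (SD). Its sign turned without HI replicate 15 and without MOD replicate 8. Marker lists were also compared between the sets, beside 49 of the 419 miRNAs (11.7%) that were higher in the 9 at FDR < 0.1 in limma. The red blood cell, striated muscle, endothelial and liver lists held 0 called miRNAs. The white blood cell list held 0 higher and 1 lower, and the neural list 1 higher and 1 lower. Of the 7 endocrine markers, all tested and none at 0, 4 were higher and 1 lower in the 9 libraries at FDR < 0.1 in limma, among them miR-375, higher by 0.37 on the log2 scale. Their sum ran from 177444 to 232042 CPM (median 214276 CPM) in the 9 and from 136048 to 211088 CPM (median 171754 CPM) in the 21. Of the 8 stromal markers, 0 were higher and 2 lower in the 9 at FDR < 0.1 in limma. These 2 were miR-10a, with a log2 difference of -1.80, and miR-10b, with -0.82. The stromal sum ran from 38927 to 49927 CPM (median 42368 CPM) in the 9 and from 32488 to 185088 CPM (median 44935 CPM) in the 21. The part of these cell types in the lower miR-26a was not tested.

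The test of the difference between the members was made on the ratio of miR-26a to miR-26b. Its log2 value was 2.35 ± 0.21 (SD, n = 9) against 2.56 ± 0.23 (SD, n = 21), a mean difference within diets of -0.19 (exact two-sided permutation test within diets, p = 0.0339), so miR-26a was lower relative to miR-26b in the 9. That too depended on single calves. The exact permutation p was 0.157 with the boundary 1 calf later, and it was 0.0977 without MOD replicate 15, 0.0771 without HI replicate 15 and 0.0610 without MOD replicate 6, the difference then lying between -0.17 and -0.12.

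Across calves miR-26a and miR-26b did not clearly rise and fall together. After subtracting diet means, Pearson's r over the 30 libraries was 0.31 (two-sided permutation test, p = 0.0964) and Spearman's rho was 0.27 (permutation p = 0.150). Without the 2 libraries farthest from the median of miR-26a, r was 0.27. It was 0.50 within HI calves (permutation p = 0.0594) and 0.02 within MOD calves (permutation p = 0.953), 0.33 within the 21 libraries (permutation p = 0.148) and -0.09 within the 9 (exact permutation test, p = 0.810). On library totals in place of TMM scaling it was -0.08 (permutation p = 0.692). Of the 3 pairs of members this was the 1 that could be computed. In order of r, miR-26b stood at place 55 of 418 for miR-26a, and miR-26a at place 61 of 418 for miR-26b. The median r over the tested miRNAs was -0.0003 for miR-26a and -6.2e-05 for miR-26b. The members were thus more alike than most pairs with either of them, though many other miRNAs were nearer.

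The miRNAs most like each member were listed by r. For miR-26a the highest r over the 30 libraries, diet means subtracted, were those of miR-10b (0.74), miR-2299-5p (0.72), miR-143 (0.72), miR-11986b (0.69) and miR-140 (0.68). Of these, miR-143 is abundant in smooth muscle cells, pericytes and fibroblasts, miR-140 is best known from cartilage, and miR-10b lies in a HOX cluster. The lowest were those of miR-216b (-0.65), miR-6120-3p (-0.61) and miR-217 (-0.59). For miR-26b the highest were those of miR-29d-5p (0.67), miR-16a (0.67), miR-152 (0.63), miR-876 (0.63) and miR-101 (0.61). These values are over calves and share each library's scaling factor. On library totals the r of miR-26b with these 5 lay between 0.48 and 0.84.

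The list of stromal markers holds miR-143 and miR-10b, which are among the 5 miRNAs most like miR-26a, so its relation to miR-26a is not independent of theirs. Its 8 miRNAs (miR-143, miR-145, miR-10a, miR-10b, miR-214, miR-199b and both arms of miR-199a) were all tested and none was at 0. Their sum ran from 32488 to 185088 CPM among HI calves (median 45194 CPM) and from 33661 to 76986 CPM among MOD calves (median 44906 CPM), and 0 of the 8 passed FDR < 0.1 between diets in limma. The 3 libraries with the highest stromal sum were HI replicate 1, HI replicate 9 and MOD replicate 5, and miR-26a was at 79082, 73734 and 85827 CPM in them, ranking 2, 4 and 1 among the 30 libraries. In the same 3 libraries miR-26b was at 10403, 10209 and 10550 CPM, in the middle of its range.

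Over the 30 libraries, diet means subtracted, miR-26a rose with the stromal sum (Pearson's r = 0.725, permutation p = 1e-05, the smallest that 1e+05 resamples can give, adjusted p = 0.00016 over 16 relations; Spearman's rho = 0.673, permutation p = 4e-05, adjusted p = 0.00064). Without the 2 libraries farthest from the median stromal level r was 0.583. It was 0.712 within HI, 0.807 within MOD, 0.794 within the 21 and 0.172 within the 9, so the relation was not seen in the 9, where the stromal sum ran only from 38927 to 49927 CPM. For miR-26b r was 0.0370 (permutation p = 0.858, adjusted p = 0.858) and rho -0.0785 (permutation p = 0.681, adjusted p = 0.908). The ratio of miR-26a to miR-26b, examined after these values were seen, rose with the stromal sum (r = 0.747, permutation p = 1e-05, adjusted p = 3.5e-05 over 7 relations; rho = 0.686, permutation p = 0.0001, adjusted p = 0.0007), which tests the difference between the members. Because miR-143 made up most of the sum, the list was also taken without it. The r with miR-26a was then 0.639 (permutation p = 0.00017, adjusted p = 0.000397), with rho 0.540 (permutation p = 0.00246, adjusted p = 0.0043). Without the 2 farthest libraries it was 0.396, and within the 9 it was -0.266. Without both miR-143 and miR-10b it was 0.437 (permutation p = 0.0165, adjusted p = 0.0231), with rho 0.419 (permutation p = 0.0211, adjusted p = 0.0296), and it was 0.675 within the 21 and -0.345 within the 9. In bulk tissue, more cells of a type and more RNA per cell cannot be told apart. With the stromal level as a covariate the diet difference was -0.33 (standard error 0.06) for miR-26a and -0.13 (standard error 0.04) for miR-26b, a covariate chosen after seeing the data. Without it the differences were -0.29 and -0.13.

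**Figure D4:**
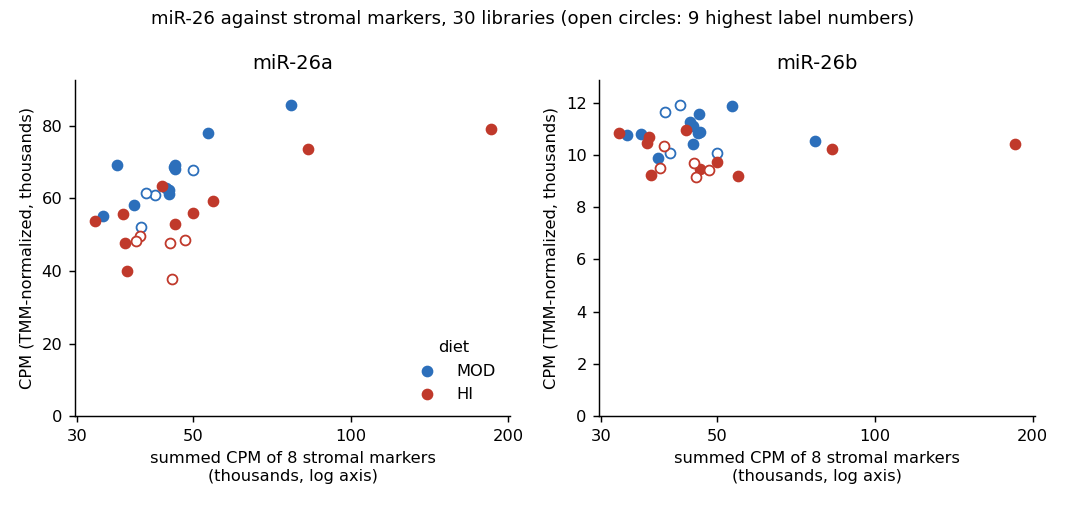
CPM of miR-26a (left) and miR-26b (right, y axes from 0) against the summed CPM of 8 stromal marker miRNAs (x axes, log scale) in 30 libraries, coloured by diet; open circles are the 9 libraries with the highest calf label numbers. The 3 libraries with the highest stromal sum, up to 185088 CPM, held miR-26a at 73734 CPM or more, while miR-26b stayed within its range.

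The red blood cell list also moved with miR-26a, through miR-486. The r of miR-486 alone with miR-26a was 0.527, and those of miR-451, miR-144 and miR-363 are not given here. The 4 miRNAs of that list (miR-486, miR-451, miR-144 and miR-363) were all tested, none was at 0, and their sum was almost wholly miR-486. The sum ran from 10590 to 24497 CPM among HI calves (median 17415 CPM) and from 15566 to 27429 CPM among MOD calves (median 20593 CPM). The members of the list did not have one sign between diets. The log2 difference, HI minus MOD, was -0.27 for miR-486 (standard error 0.11, FDR = 0.274 from limma), 0.55 for miR-451 (standard error 0.21, FDR = 0.190), 0.46 for miR-144 (standard error 0.15, FDR = 0.115) and 0.05 for miR-363 (standard error 0.12, FDR = 0.936). The paper, which used edgeR, listed miR-451 and miR-144 as differentially expressed and higher in HI calves. The log2(CPM + 1) scale used here understates changes of low miRNAs such as miR-144, at 4.44 CPM. The r of the sum with miR-26a was 0.526 (permutation p = 0.00305, adjusted p = 0.0163) and rho 0.548 (permutation p = 0.00193, adjusted p = 0.0154). It fell to 0.331 without the 2 farthest libraries and was 0.712 within HI, 0.10 within MOD, 0.407 within the 21 and 0.821 within the 9, so it was weak in MOD calves. For miR-26b r was 0.0702 (permutation p = 0.711, adjusted p = 0.858) and rho 0.0327 (permutation p = 0.862, adjusted p = 0.920). With miR-486 as a covariate the diet difference of miR-26a was -0.18 (standard error 0.08) and that of miR-26b -0.13 (standard error 0.04). That covariate is miR-486 alone, whose sign between diets differed from those of the other members of its list. The part of red blood cells in the difference of miR-26a was not tested. The 7 striated muscle miRNAs, of which 4 were tested and none was at 0 in all libraries, summed to 58.1 to 157 CPM among HI and 60.3 to 84.3 CPM among MOD calves. Their r with miR-26a was 0.581 (permutation p = 0.00106, adjusted p = 0.00848), but rho was 0.359 (permutation p = 0.0518, adjusted p = 0.276), r was -0.395 within the 9, and their part was not tested. Of the other 5 lists (endocrine, white blood cell, neural, endothelial and liver), none had an adjusted p under 0.05 with either member. On library totals, for which no p was computed, the r of miR-26a was -0.596 with the endocrine list, beside -0.261 with TMM scaling, and -0.495 with the neural list, beside -0.291. With TMM scaling the r with the endocrine list was 0.05 within the 21 and 0.59 within the 9. The negative sign over the 30 libraries was thus not seen within either set. With the neural list r was -0.10 within the 21 and -0.15 within the 9. Among the 419 miRNAs 15 (3.58%) passed FDR < 0.1 between diets in limma, 8 of them higher (1.91%) and 7 lower (1.67%) in HI calves, and the 8 marker lists held 0 of them. The 7 include miR-26a and miR-26b, which were chosen for being lower, so their place there is not support.

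Other miRNAs with the targets of miR-26 were compared between diets. The lists were written from general knowledge with earlier results of these data known, and hold no miR-26. Over all 419 miRNAs, 8 (1.91%) were higher and 7 (1.67%) lower in HI calves at FDR < 0.1 in limma. That share of lower miRNAs includes miR-26a and miR-26b, which the lists do not hold. Of 10 miRNAs known to repress EZH2, 8 were tested, and 1 was lower and 0 higher in HI calves at FDR < 0.1 in limma. That was miR-101, which averaged 10176 ± 1065 CPM in the HI group and 11755 ± 982 CPM in the MOD group (SD). Its log2 difference was -0.21 (standard error 0.05, FDR = 0.0256 from limma), with 15 of 15 HI calves below the MOD median. It was also among the 5 most like miR-26b across calves. The most abundant of the list was let-7a-5p, with a log2 difference of -0.0022 (standard error 0.04, FDR = 0.984). The median log2 difference of the list was 0.04, beside 0.02 over all 419.

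The share called over all 419 miRNAs was 1.91% higher and 1.67% lower in HI calves. Of 26 miRNAs known to restrain the cell cycle, 24 were tested, and 3 were higher and 2 lower in HI calves, so the list did not move one way (median log2 difference -0.01). The 3 that rose were miR-195 (0.41, FDR = 0.0177), miR-497 (0.37, FDR = 0.0256) and miR-34a (0.49, FDR = 0.0256), which target cyclins and CDKs. The 2 that fell were miR-101 and miR-29a, the latter by 0.14 on the log2 scale (FDR = 0.0365 from limma), chosen here after its values were seen. The 2 most abundant of the list, miR-143 and let-7f, had log2 differences of 0.12 (standard error 0.17, FDR = 0.873) and -0.06 (standard error 0.03, FDR = 0.608). Directions of the 5 called were the same under the 4 other scalings, but miR-101 and miR-29a passed FDR < 0.1 in 2 of them, miR-497 in 3, and miR-195 and miR-34a in 4.

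A last list was set beside the same shares over all 419 miRNAs, 1.91% higher and 1.67% lower. Of 30 miRNAs well known to lie in introns of protein genes, as miR-26 does, 29 were tested, and 3 were higher and 1 lower in HI calves at FDR < 0.1 (limma). Those higher were both arms of miR-455, from a collagen gene (miR-455-5p 0.39 with FDR = 0.0256, miR-455-3p 0.35 with FDR = 0.0412), and miR-378, from PPARGC1B (0.28, FDR = 0.0874). The lower one was miR-33a, from the sterol regulator SREBF2, which fell by 0.23 on the log2 scale (FDR = 0.0396 from limma). Of the 4 other scalings, both arms of miR-455 passed FDR < 0.1 in 3, and miR-378 and miR-33a in 2. The median log2 difference of the list was 0.02, the same as over all 419. The most abundant were miR-186 (log2 difference -0.13, FDR = 0.306) and miR-7 (-0.13, FDR = 0.721).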

How the data were processed

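Small RNA libraries of anterior pituitary from 15 HI and 15 MOD calves were analysed, with groups taken from the treatment label. Reads had been trimmed with Cutadapt, restricted to miRNA length, cleared of other short RNAs and quantified on known bovine miRNAs with miRDeep2 (ARS-UCD1.2). As deposited, each value is a signal, CPM scaled by TMM factors by the authors, with column sums of 828807 to 1090510. Low values were whole multiples of a step per library, the worth of 1 read (within 0.001 reads for at least 94.9% of values checked), from which reads were recovered. This was tested on 20 simulated libraries. Depth was 6650492 to 11086524 reads per library, and limits set by counts cover counting error only.

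Diets and library sets were compared with limma 3.58.1 in R 4.3.3 (eBayes with trend) on log2(CPM + 1), over 419 miRNAs kept by filterByExpr of edgeR, with Benjamini-Hochberg adjustment (FDR) over all 419. The log2(CPM + 1) scale understates changes of low miRNAs. The threshold was FDR < 0.1. Fits with edgeR 4.0.16 (quasi-likelihood) and DESeq2 1.42.0 used recovered reads rounded to whole numbers. Correlations used 1e+05 resamples, or all pairings under 10 libraries. Replicates are calves, numbered in the order of the samples. RefSeq names (ARS-UCD2.0) served for names and neighbours. Positions and sequences are not given here, so the part of the naming rule that compares seeds was not applied.

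The members and lists were chosen with earlier results of these data known. Named miRNAs were the family, the 5 with highest mean CPM, the 5 highest and 3 lowest in r with miR-26a and 5 highest with miR-26b, list members past FDR < 0.1 (at most 4) or among the 2 most abundant of a list, and markers. The result of 1 further list of miRNAs is not reported here.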

Additional observations from a re-analysis of the deposited data

How the results depend on the processing

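Each alternative run used libraries by which the members were chosen, so its sign is not independent support. The diet differences were negative in every alternative run. For miR-26a they lay between -0.39 and -0.18 over 18 alternatives, and between -0.32 and -0.24 with each calf left out. For miR-26b they lay between -0.23 and -0.07, and between -0.14 and -0.11 with each calf left out. The -0.23 came with upper quartile scaling, the 1 value that moved by more than the SD between calves. That rule is wide, as the SD (0.24 for miR-26a, 0.09 for miR-26b) exceeds the standard error of each difference (0.09 and 0.04). The difference of the log2 ratio lay between -0.19 and -0.12 with each calf left out, and was -0.11 within the 21 libraries and -0.21 within the 9.

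The lower level of miR-26a in the 9 libraries (-0.23) was -0.20 with FDR = 0.131 when the boundary was set 1 calf later. It kept FDR < 0.1 in the other 12 alternatives, and lay between -0.26 and -0.15 with each calf left out. For miR-26b that difference lay between -0.0597 and 0.0080 with each calf left out, being 0.0080 without HI replicate 15 and 0.0024 without MOD replicate 8. The correlation of miR-26a with miR-26b was -0.0752 on library totals and -0.0945 within the 9 libraries. The cause of these changes was not tested.

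The number of miRNAs at FDR < 0.1 between diets was 15. It was 29 with upper quartile scaling, 24 with DESeq2's Wald test, 20 with edgeR's quasi-likelihood test and 9 with miR-486 as a covariate, and 12 to 21 with each calf left out. The paper's rule also required a fold change above 1.5. In limma 2 of the 419 (0.477%) met both conditions. Neither miR-26a nor miR-26b was among these 2, and the paper did not list either as differentially expressed. Of the 15, 8 were higher in HI calves and 7 lower. On library totals the split was 16 to 2, and with upper quartile scaling 3 to 26. The paper states that calves were blocked by farm, sire, age and bodyweight before they were assigned to diets. The labels give no blocks and no replicate numbers common to HI and MOD calves. No paired analysis was therefore possible, and the blocks were not in the models. The stromal covariate, the shortened stromal lists, the label digit range, the interaction and the ratio tests were chosen after seeing the data.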
